A study of Rattus norvegicus with 6 samples.

Results

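Zp1, Zp2 and Zp3 encode glycoproteins of the zona pellucida, the coat that surrounds the growing mammalian oocyte. They were studied here in cultured neonatal rat ovaries. The members were all probe sets of the array whose only annotated gene symbol was Zp1, Zp2 or Zp3. There were 3 such probe sets, 1 per gene, among 20826 probe sets with a single symbol and 31099 in all. Whole ovaries of 4-day-old female Sprague-Dawley rats were kept on floating filters for 48 h in medium with albumin, ascorbic acid and transferrin. The NT3 group received recombinant human NT3 at 50 ng/ml, and the control group received no factor. NT3 is the neurotrophin encoded by Ntf3, and the series title concerns its effect on the step from primordial to primary follicle. Each group had 3 arrays, each made from RNA of 2 to 3 ovaries homogenised together. The replicates are labelled biological, but whether litters or animals differed is not stated, and every p-value below reflects the spread among these arrays alone.

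In the mouse, the zona proteins are made by the oocyte, secreted and assembled into filaments in which ZP2 and ZP3 repeat and ZP1 forms cross-links. Mouse sperm bind at ZP2, and the oocyte transcription factor FIGLA is needed there for expression of all 3 genes through E-boxes, short binding sites for helix-loop-helix factors. Oocytes of primordial follicles have no complete zona, and the coat is built as follicles begin to grow, so zona transcripts are widely used as markers of oocyte growth.

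The bases before the gene starts are shown because E-boxes there are the known route of shared control in the mouse. RefSeq promoter sequences of the GRCr8 assembly were used for Zp1 (chr1:216992149-216992398, minus strand) and Zp3 (chr12:26334127-26334376, minus strand). Each covers the 250 bases before the start, written 5′ to 3′ along the gene. The capitals mark matches to CANNTG, the general E-box, and to TATAAA, a core promoter motif, on either strand.
Zp1: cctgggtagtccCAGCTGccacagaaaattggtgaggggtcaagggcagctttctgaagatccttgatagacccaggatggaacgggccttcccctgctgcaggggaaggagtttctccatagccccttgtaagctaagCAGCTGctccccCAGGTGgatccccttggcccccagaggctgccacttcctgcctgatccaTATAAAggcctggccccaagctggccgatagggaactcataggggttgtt
Zp3: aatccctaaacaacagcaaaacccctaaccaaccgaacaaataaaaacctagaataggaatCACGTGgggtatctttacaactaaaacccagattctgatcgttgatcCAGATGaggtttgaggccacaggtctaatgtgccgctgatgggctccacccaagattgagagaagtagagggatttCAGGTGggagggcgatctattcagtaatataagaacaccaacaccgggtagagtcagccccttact
Both windows held 3 E-boxes. In both, 1 of them read CAGGTG, which is a case of CANNTG, starting 99 bases before the start in Zp1 and 66 bases before it in Zp3. TATAAA stood 50 bases before the start in Zp1 and had no match in the Zp3 window. Of 33469 promoter windows of that length, 65.5% held CANNTG, 15.9% held CAGGTG and 12.9% held TATAAA on either strand. CAGGTG was singled out after the windows were seen, and a match describes the letters only. The Zp1 gene spans chr1:216984343-216993882, so that its window lies inside the annotated span. Zp2 lies at chr1:183944840-183956619 and Zp3 at chr12:26327161-26334126.

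The values are MAS5 signals on a linear scale, the deposited intensities. Every array had a trimmed mean of 210.1 and a median of 69.0 to 75.0. A signal depends on the probes of its probe set, so signals are compared between arrays and not between genes. All 3 zona probe sets passed the filter on low signals, a mean log2 signal at or above the 40th percentile, which kept 18625 probe sets. Control replicate 2 stood apart in RNA quality, with a 3′ to 5′ signal ratio of 6.83 for beta-actin against 2.42 to 2.91 on the other arrays. Of 16 annotated markers of the ovary's granulosa cells, 14 lay above the filter, which is not a detection call. Of 14217 genes with a single-symbol probe set, 10599 besides Zp1 lay above it too. Among the granulosa markers, Fst, the follistatin gene, had 1422, 1553 and 1300 in NT3 against 1099, 2155 and 1336 in control.

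Zp1, Zp2 and Zp3 all had a lower mean in NT3-treated ovaries, only slightly so for Zp2 and Zp3, and none passed the test. The mean signal of Zp1 was 241 ± 102 in NT3 and 294 ± 15.5 in control (SD, n = 3 each). The mean signal of Zp2 was 4671 ± 358 in NT3 and 4804 ± 238 in control, and that of Zp3 was 4063 ± 483 and 4285 ± 75.4. A mean below control is common here, since 50.2% of all tested probe sets had one. The groups overlapped for all 3 members, where 5.83% of tested probe sets had groups apart, 3.21% with NT3 lower and 2.62% with NT3 higher. By limma, 0 of the 3 members had an adjusted p under 0.05, and so did 0% of the 18625 probe sets. At an unadjusted p under 0.05, limma gave 0 of the 3 members and 1.29% of all. In ovary RNA, fewer oocytes and less transcript per oocyte cannot be told apart.

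**Figure D1:**
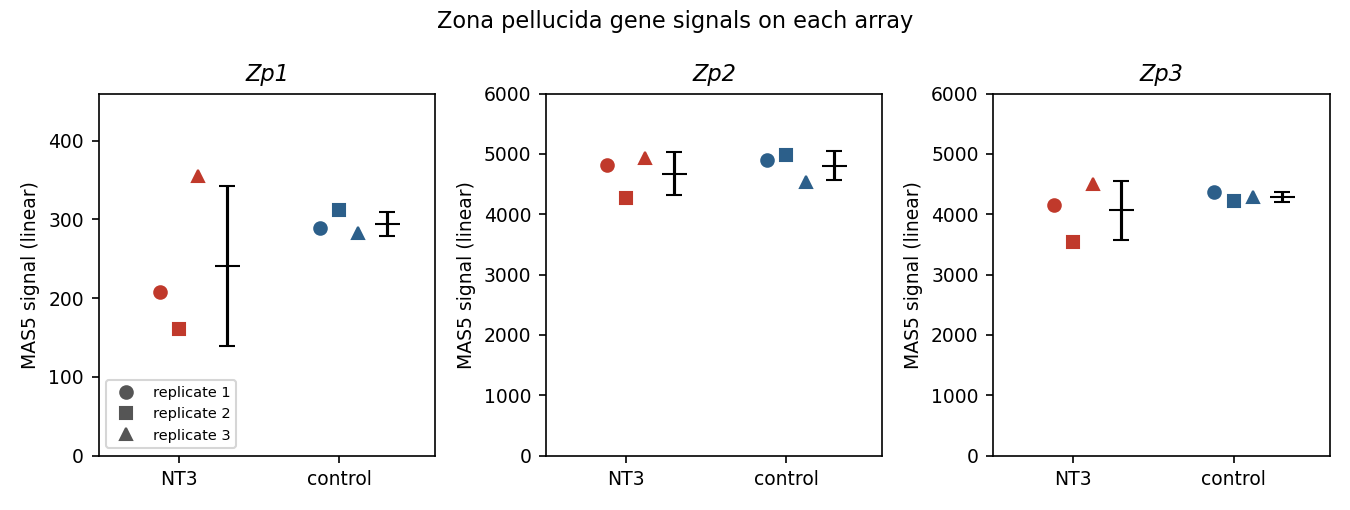
MAS5 signal (linear) of Zp1, Zp2 and Zp3 on each array, by group, with marker shape for the replicate number and the mean ± SD of 3 arrays beside the points. The groups overlap for all 3 genes, and NT3 replicate 2 is the lowest array in each panel.

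For Zp1, the cross-linking component, the signal was 207, 161 and 355 in NT3 replicates 1 to 3, against 289, 312 and 283 in control replicates 1 to 3. NT3 replicates 1 and 2 lay below all controls and NT3 replicate 3 lay above all of them, so the groups overlapped. The log2 fold change was -0.37 ± 0.25 (SE), a ratio of 0.775 with a 95% interval of 0.519 to 1.16 (limma, adjusted p = 1.00). An exact 2-sided permutation test gave p = 0.4, and with 3 arrays a group it cannot fall below 0.1. The size of the difference turned on single arrays. It was -0.69 ± 0.17 without NT3 replicate 3 (limma, adjusted p = 1.00) and -0.12 ± 0.23 without NT3 replicate 2. NT3 replicate 3 was the only NT3 array above the controls, so leaving it out had to enlarge the difference. In that fit Zp1 fell among the 287 of 18625 tested probe sets whose limma p was below 0.05 before adjustment. With every array kept, the limma p of Zp1 before adjustment was 0.18. The lower p follows from the choice of array left out and gives no separate evidence of a change.

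For Zp2, which carries the sperm-binding region in the mouse, the signal was 4811, 4265 and 4938 in NT3 replicates 1 to 3, against 4897, 4981 and 4533 in control. Only NT3 replicate 2 lay outside the range of the controls. The log2 fold change was -0.042 ± 0.097, a ratio of 0.971 with a 95% interval of 0.834 to 1.13 (limma, adjusted p = 1.00; exact permutation p = 0.6). The difference was 0.022 without NT3 replicate 2 and -0.015 without control replicate 2, whose beta-actin ratio was 6.83. The interval holds the ratios compatible with these arrays under the fit, and it is not a detection limit.

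For Zp3, the filament partner of ZP2, the signal was 4145, 3544 and 4501 in NT3 replicates 1 to 3, against 4363, 4212 and 4281 in control. The 3 controls lay close together, while NT3 replicates 1 and 2 lay below them and NT3 replicate 3 above. The log2 fold change was -0.084 ± 0.11, a ratio of 0.944 with a 95% interval of 0.798 to 1.12 (limma, adjusted p = 1.00; exact permutation p = 0.6). Without NT3 replicate 2 it was 0.011, and without NT3 replicate 3 it was -0.16.

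The NT3 and control arrays share replicate numbers, and deviations of equal numbers went together weakly across probe sets. Their correlations were 0.22 to 0.25, against -0.25 to 0.029 for unequal numbers. Within numbers 1, 2 and 3, the log2 difference of NT3 minus control was -0.48, -0.96 and 0.33 for Zp1. It was -0.025, -0.22 and 0.12 for Zp2, and -0.074, -0.25 and 0.072 for Zp3. All 3 genes were thus lower in NT3 in pairs 1 and 2 and higher in pair 3, with the largest drop in pair 2.

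The NT3 arrays spread more widely than the controls for each zona gene. The SD of the log2 signal was 0.58 in NT3 and 0.075 in control for Zp1, 0.11 and 0.072 for Zp2, and 0.18 and 0.025 for Zp3. Over all tested probe sets the spread leaned the other way, with a larger SD in NT3 for 35.9% and median SDs of 0.15 in NT3 and 0.21 in control. Control replicate 2, which stood apart in RNA quality, was the lowest array for 27.5% of tested probe sets and the highest for 31.4%. Its part in the control SDs, and so in the shares that follow, was not tested. A ratio of the SDs as large as that of Zp1 occurred in 0.983% of the tested probe sets, as large as that of Zp3 in 1.26% and as large as that of Zp2 in 19.2%. This pattern was noticed after the values were seen, with 3 arrays per group, and was not tested.

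All 3 zona genes were low in NT3 replicate 2 and high in NT3 replicate 3, as deviations from each gene's mean over the 6 arrays show. In NT3 replicate 2 the log2 signal of Zp1, Zp2 and Zp3 was -0.69, -0.15 and -0.23 from that mean. In NT3 replicate 3 it was 0.46, 0.062 and 0.11. In NT3 replicate 1 the genes parted, with Zp1 at -0.32, Zp2 at 0.025 and Zp3 at -0.0060. Over the 6 arrays, Zp1 and Zp3 correlated with Pearson r = 0.911 (exact permutation p = 0.0139, 0.0417 adjusted over the 3 pairs) and Spearman rho = 0.829 (exact permutation p = 0.0583, adjusted 0.0875). Zp1 and Zp2 had r = 0.771 (exact permutation p = 0.111, adjusted 0.133) and rho = 0.886 (exact permutation p = 0.0333, adjusted 0.0875). Zp2 and Zp3 had r = 0.823 (exact permutation p = 0.133, adjusted 0.133) and rho = 0.543 (exact permutation p = 0.297, adjusted 0.297). Without the 2 arrays farthest from the median of the gene named first, r was 0.642 for Zp1 and Zp3, 0.604 for Zp1 and Zp2, and 0.409 for Zp2 and Zp3. NT3 replicate 2 was among the arrays left out in each case, and leaving out the farthest arrays also narrows the range on which r depends. The tests treat the 6 arrays as independent, although arrays of equal number deviated together.

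**Figure D2:**
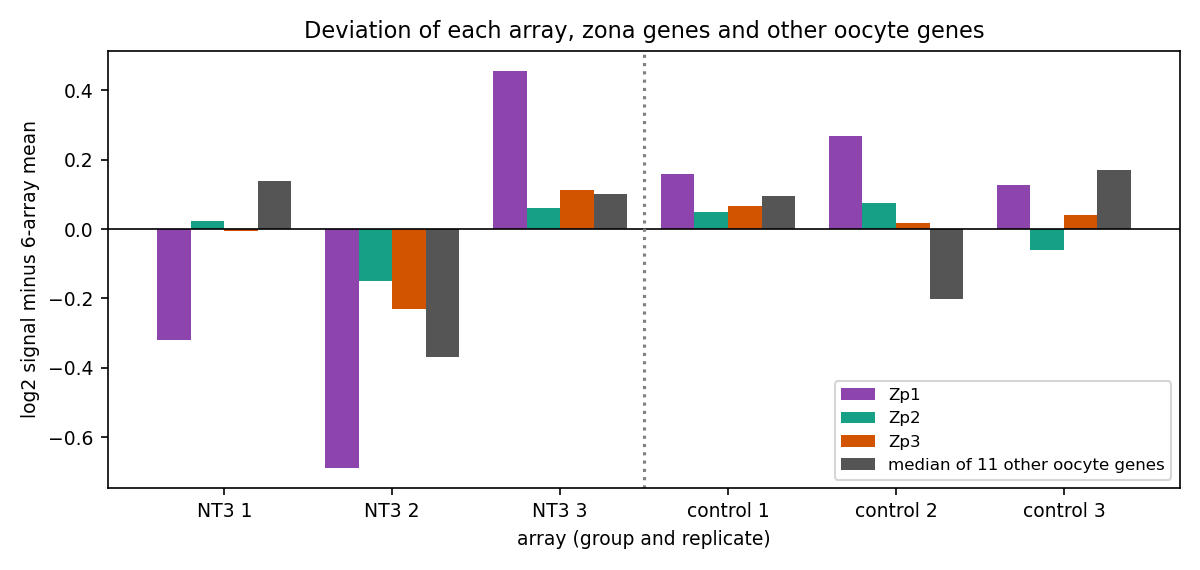
Log2 signal of Zp1, Zp2, Zp3 and the median of 11 other oocyte genes on each array, as the difference from the mean over the 6 arrays. All 4 bars lie below 0 in NT3 replicate 2 and above 0 in NT3 replicate 3. In control replicate 2 the zona genes lie above 0 and the median of the other oocyte genes at -0.20.

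Zp1 moved over a wider range than its partners. The log2 ratio of Zp1 to Zp2, centred on the 6 arrays, was -0.35, -0.54 and 0.39 in NT3 replicates 1 to 3, against 0.11, 0.19 and 0.19 in control. The mean difference of that ratio was -0.33 (exact 2-sided permutation p = 0.4, n = 3 each). The ratio of Zp1 to Zp3 differed by -0.28 (exact permutation p = 0.4) and that of Zp2 to Zp3 by 0.042 (exact permutation p = 0.6). With 3 arrays a group this test cannot pass 0.05 at any size of difference, so it does not settle whether the proportions changed. The residual SD of Zp1 was larger than that of 89.3% of tested probe sets, against 19.8% for Zp3 and 9.70% for Zp2. These shares are over probe sets of every signal level. Zp1 had signals of 161 to 355, against 4265 to 4981 for Zp2 and 3544 to 4501 for Zp3. The part of signal level in the wider range of Zp1 was not tested.

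Other genes that the oocyte expresses were read on the same arrays. Of 33 listed oocyte genes outside the zona, 12 had a named probe set and 11 passed the filter. Of these 11, 3 were higher and 8 lower in NT3, with a median log2 fold change of -0.13, against -0.00054 over all 18625 probe sets. None passed limma's test, and 0 had an unadjusted p under 0.05. The summed signal of the 11 genes was 10919 to 13556 in NT3 and 12983 to 13703 in control. NT3 replicate 2 was the lowest array for 8 of the 11 genes, as it was for Zp1, Zp2 and Zp3, against 14.4% of all tested probe sets.

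Gdf9, the oocyte growth factor gene, had 1490, 926 and 1687 in NT3 against 1824, 1150 and 1618 in control, low in both arrays numbered 2. Bmp15, its close relative, had 183, 128 and 233 in NT3 against 240, 53.4 and 241 in control, with its lowest value in control replicate 2. The zona genes did not share that drop, since Zp1, Zp2 and Zp3 had 312, 4981 and 4212 in control replicate 2. The other oocyte genes did not all drop there. That array was the lowest for 2 of the 11 and the highest for 2, against 27.5% and 31.4% of all tested probe sets. The median deviation of the 11 in that array was -0.20, and Zp1, Zp2 and Zp3 stood 0.47, 0.28 and 0.22 above that median. The part of RNA quality in this gap was not tested.

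Among the other oocyte genes, Cpeb1, which encodes a regulator of stored maternal mRNA, had 1411, 1349 and 1538 in NT3 against 1572, 1937 and 1540 in control. All 3 NT3 arrays of Cpeb1 lay below the controls, where 3.21% of tested probe sets did so, and its log2 fold change was -0.23 ± 0.12 (limma, adjusted p = 1.00). Tle6 and Ooep, whose products belong to the maternal complex under the oocyte membrane, had log2 fold changes of -0.13 ± 0.15 and -0.056 ± 0.14. Ybx2, which encodes an mRNA-binding protein of germ cells, had -0.14 ± 0.26, and Gja4, the gap junction gene of the oocyte, had 0.10 ± 0.21. Uchl1, Btg4, Bcl2l10 and Kit had -0.12 ± 0.099, -0.14 ± 0.28, -0.19 ± 0.30 and 0.24 ± 0.49. Mos, the kinase gene of meiotic arrest, lay below the filter at 0.4 to 0.7 in NT3 and 0.5 to 1.8 in control.

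**Figure D3:**
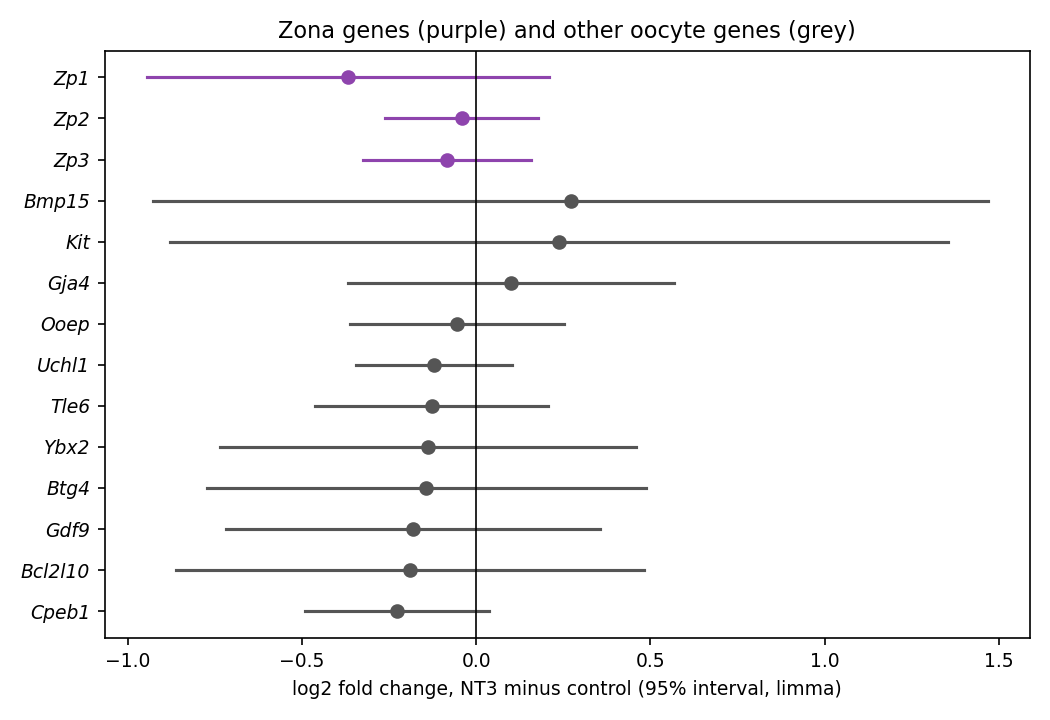
Log2 fold change of NT3 minus control with its 95% interval from limma for Zp1, Zp2, Zp3 and 11 other oocyte genes. Every interval includes 0, and those of Zp2 and Zp3 are among the narrowest.

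The change of the zona genes relative to the oocyte median was near 0 for Zp2 and Zp3. Zp2 minus the median of the other oocyte genes differed by 0.023 between NT3 and control on the log2 scale, and Zp3 minus that median by -0.018. By array, Zp2 minus that median was -0.11, 0.22 and -0.040 in NT3 replicates 1 to 3, against -0.046, 0.28 and -0.23 in control. For Zp3 it was -0.14, 0.14 and 0.011 in NT3, against -0.028, 0.22 and -0.13 in control. Control replicate 2 held the highest control value for both genes, and its part in these means was not tested. Zp1 minus that median was -0.46, -0.32 and 0.35 in NT3 replicates 1 to 3, against 0.062, 0.47 and -0.045 in control, a mean difference of -0.30. These differences were smaller than the range among arrays of the same group and were not tested.

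Genes that act on the egg coat were measured in part. Of 12 listed regulators and partners, 6 had a named probe set and 4 passed the filter, with 2 higher and 2 lower in NT3 and a median log2 fold change of 0.0094. Sohlh1, an oocyte transcription factor gene that acts upstream of Figla in the mouse, had 465, 471 and 454 in NT3 against 514, 386 and 420 in control. Taf4b, which encodes a germ cell subunit of the TFIID complex, had a log2 fold change of -0.029 ± 0.19. Tcf12, which encodes an E-protein partner of helix-loop-helix factors, had 0.048 ± 0.14. Furin, which encodes a protease that cuts proproteins such as those of the zona, had -0.12 ± 0.21 and its highest signal, 334, in control replicate 2, against 194 to 236 elsewhere. Tcf3, which encodes the E12 partner of FIGLA, and Fetub, whose product inhibits the protease that cleaves ZP2 at fertilisation in the mouse, lay below the filter, at 26.1 to 36.9 and 7.2 to 30.0 in NT3 against 38.8 to 46.3 and 23.8 to 35.8 in control. Figla, Nobox and Zp4, the gene of a further rat zona protein, were not analysed here, as no probe set carried their name.

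The ZP domain also occurs in proteins outside the egg coat. Of 6 annotated genes of that kind, only Eng, the endoglin gene of endothelium, passed the filter, with 284, 297 and 263 in NT3 against 190, 322 and 177 in control (log2 fold change 0.35 ± 0.22, limma adjusted p = 1.00). The other 5, Umod, Gp2, Dmbt1, Tgfbr3 and Cuzd1, had signals of 0.9 to 114 in NT3 and 0.9 to 73.6 in control, with both highest values in Cuzd1. Early germ cell and meiosis genes had 6 members above the filter, 2 higher and 4 lower, with a median of -0.036 and summed signals of 2025 to 2152 in NT3 and 2088 to 2214 in control. Of these 6, 1 had all NT3 arrays below the controls, against 3.21% of all tested probe sets.

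Markers of other cells gave no adjusted limma p under 0.05 in any list. The 14 granulosa genes had 4 members higher and 10 lower in NT3, with a median log2 fold change of -0.060 and summed signals of 8297 to 8923 in NT3 and 8194 to 9696 in control. The 10 theca and stroma genes had 8 higher and 2 lower, with a median of 0.080, and their summed signal was higher in every NT3 array, at 24385 to 25720 in NT3 and 22933 to 23401 in control. That sum is carried by a few bright probe sets such as Col3a1, a collagen gene with mean signals of 9017 in NT3 and 8577 in control. Of the 10 members, 1, the proteoglycan gene Lum, had all NT3 arrays above the controls, as did 2.62% of tested probe sets. The 7 endothelial genes were 0 higher and 7 lower, where 50.2% of all tested probe sets were lower. Their log2 fold changes ran from -0.33 to -0.0031, with a median of -0.10, and 0 had an unadjusted limma p under 0.05. Their sums were 2001 to 2263 in NT3 and 2101 to 2344 in control. Eng, counted above with the ZP-domain genes, was higher in NT3. The 12 macrophage and leukocyte genes were 9 higher and 3 lower, with a median of 0.13 and sums of 4819 to 6143 in NT3 and 4753 to 5613 in control. Of these 12, 2 had all NT3 arrays above the controls, against 2.62% of all tested probe sets. The 7 smooth muscle and pericyte genes were 5 higher and 2 lower, with a median of 0.15. Of these 7, 1 had all NT3 arrays below the controls, against 3.21% of all tested probe sets. Both red blood cell genes were lower. The 9 genes of oviduct and surface epithelium were 5 higher and 4 lower, with a median of 0.12. Over all these lists together, 1 marker, the tight junction gene Cldn3, had an unadjusted limma p under 0.05 (log2 fold change 0.92 ± 0.24). Of all tested probe sets, 1.29% had such a p. Cldn3 was also the 1 of these 9 genes with all NT3 arrays above the controls, against 2.62% of all tested probe sets. The 9 genes summed to 8326 to 12478 in NT3 and 7966 to 11455 in control. The epithelial sum was highest in NT3 replicate 2, the array with the lowest zona signals, where Krt19, a keratin gene of surface epithelium, had 7191 against 4477 and 5032 in the other NT3 arrays. In control replicate 2, where the zona genes were not low, Krt19 was at 7363. None of these lists had a member at 0 among those tested, and their part in the zona values was not tested.

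The genes most like each zona gene were taken as the 3 with the highest Pearson r of log2 signal over the 6 arrays, among 10599 other genes. For Zp1 these were Smagp, Ubr2 and C12h12orf76, with r of 0.991, 0.987 and 0.987. For Zp2 they were Tdrkh, Rwdd2b and Cldn12, with r of 0.996, 0.994 and 0.986. For Zp3 they were Msantd3, Fbxl20 and Pfkfb1, with r of 0.998, 0.993 and 0.991. Tdrkh encodes a Tudor protein of the germ cell piRNA pathway, and its signal was 170, 144 and 179 in NT3 against 176, 177 and 157 in control. It was singled out for that role once the genes were listed, so it does not mark the listed genes as germ cell genes. The oocyte genes Gdf9 and Bmp15 ranked 1493 and 6423 for Zp2. With 6 arrays a high r is common, as 103, 105 and 118 genes had r above 0.9 with Zp1, Zp2 and Zp3. The zona genes were not each other's nearest, with Zp3 ranked 81 for Zp1 and Zp2 ranked 429. Gdf9 had r of 0.647, 0.565 and 0.871 with Zp1, Zp2 and Zp3, and Bmp15 had 0.084, -0.10 and 0.33.

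The differences were recomputed under 16 other settings. Zp1 stayed lower in NT3 in all 16, at -0.69 to -0.074, with adjusted limma p of 0.989 to 1.00. Some settings, such as the block or another filter, cannot change the estimate, and all draw on the same arrays. Zp2 ranged from -0.083 to 0.049 and Zp3 from -0.16 to 0.011, and for both the sign changed when NT3 replicate 2 was left out.

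**Figure D4:**
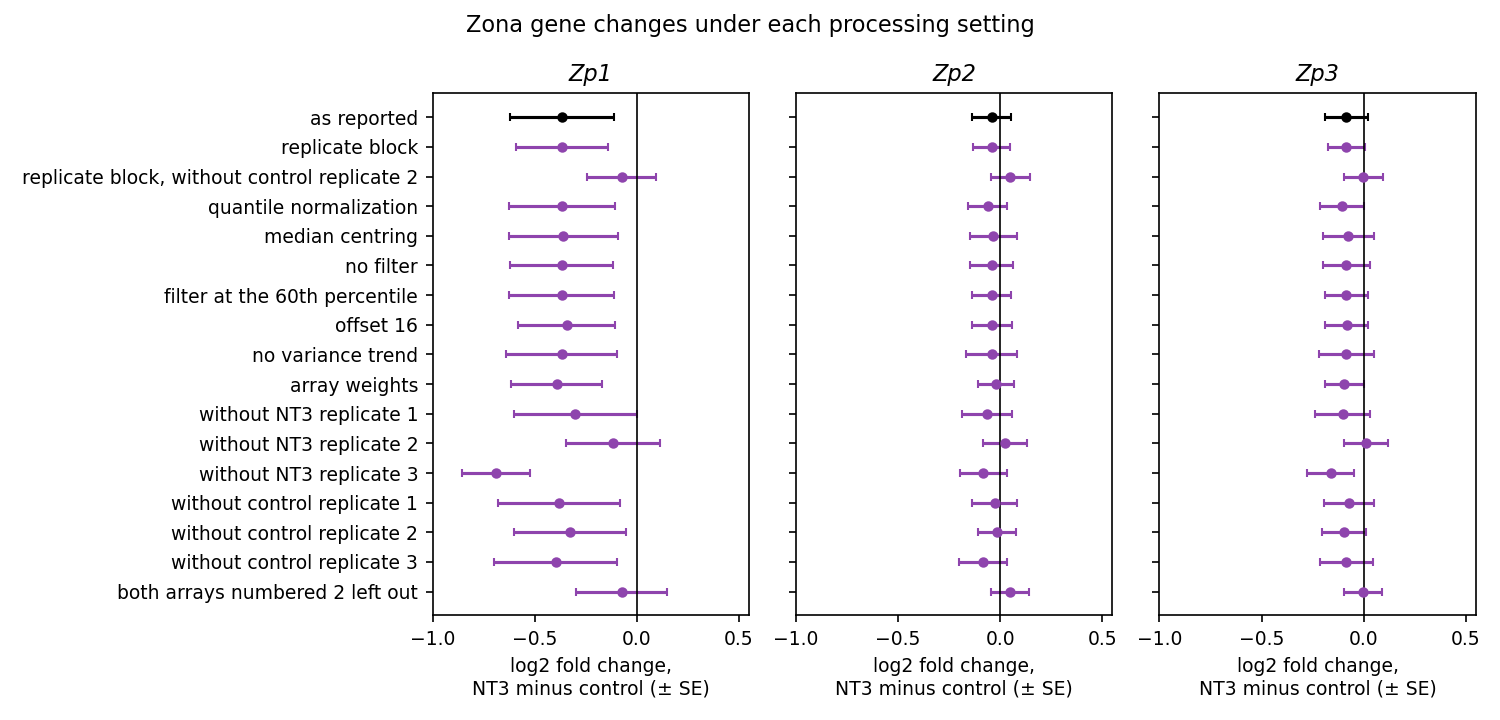
Log2 fold change of NT3 minus control ± SE for each zona gene as reported (black) and under 16 other settings (purple). The settings without NT3 replicate 2, without both arrays numbered 2, and with the block but without control replicate 2 move all 3 genes toward 0 or above it, and leaving out NT3 replicate 3 moves Zp1 to -0.69.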

How the data were processed

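The authors deposited 1 linear intensity per probe set and array, a MAS5 signal per the submitters' processing notes, with no version stated there. Per the labels' protocols, total RNA was turned into biotin-labelled cRNA. Control probe sets (57) were left out, signals were taken to log2 with a floor of 0.1 for 5 probe sets that held a 0, and probe sets with a mean log2 signal below the 40th percentile (a signal of 41.3) were left out. NT3 was compared with control by limma 3.58.1 in R 4.3.3 (lmFit, eBayes with an intensity trend, 2-sided, Benjamini-Hochberg over 18625 probe sets), with no block. The fit was tested on simulated data. The number of arrays limits the precision. Genes were named from the array annotation, and a listed gene stood for its probe set with the highest mean signal. Oocyte and egg coat genes could all be named, and from other lists the members with the highest mean signal. The members and lists were chosen with earlier results of these data known. Deviations from the group means correlated at 0.230, 0.247 and 0.222 for arrays numbered 1, 2 and 3 in both groups. For unequal numbers they correlated at -0.25 to 0.029. Deviations within a group sum to 0, so these correlations are not independent of each other. No label states a pairing. The tests as reported were unpaired. Differences within equal numbers are given beside them, and the number served as a block in alternative settings only. Detection calls were not used here.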

Additional observations from a re-analysis of the deposited data

How the results depend on the processing

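Zp1 kept its direction in all 16 alternatives, and no zona gene passed limma's test in any. The block, the removed filter, the stricter filter and the fit without variance trend cannot change the estimate when all arrays are used. All alternatives draw on the same arrays, so their number is not independent evidence on the direction. With the replicate number as a block, log2 fold changes were -0.37 ± 0.23 for Zp1, -0.042 ± 0.091 for Zp2 and -0.084 ± 0.089 for Zp3, and the block changed no call. Zp2 turned to 0.049 with both arrays numbered 2 left out, and likewise to 0.049 with the block and without control replicate 2, where NT3 replicate 2 has no partner. With single arrays left out, Zp1 ranged from -0.69 to -0.12, Zp2 from -0.083 to 0.022 and Zp3 from -0.16 to 0.011, the upper ends all being without NT3 replicate 2. Quantile normalization and median centring moved no member past 0. Averaging probe sets of a gene was not run, as each zona gene has 1. The count of probe sets with an adjusted p under 0.05 was 0 in 15 alternatives, single arrays left out included (0 to 0), and 4 with the block and without control replicate 2. Of those 4, only Hnrnpa2b1 had a single gene symbol, and it was named after its value was seen. At an unadjusted limma p under 0.05 the count was 240 of 18625 as reported. It was 752 of 31042 with no filter and 123 of 12417 with a filter at the 60th percentile. The other settings tested 18625. There the count was 401 with the block and 962 with the block and without control replicate 2. Quantile normalization gave 251, median centring 224, an offset of 16 before the log 248, no variance trend 377 and array weights 585. Without NT3 replicates 1, 2 and 3 it was 176, 178 and 287. Without control replicates 1, 2 and 3 it was 313, 656 and 420, and without both arrays numbered 2 it was 514. The cause was not tested.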
